A study of Mus musculus with 8 samples.

Results

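The immunoproteasome and peptide loading genes Psmb8, Psmb9, Psmb10, Tap1, Tap2, Tapbp and B2m were described in mouse embryonic fibroblasts, which are connective tissue cells grown from embryos. These 7 genes, of 19938 genes named on the array, were taken by their symbol in the platform annotation, and each was measured by 1 probe set. A further 2 probe sets carry the symbol Tapbp together with that of a ribosomal protein gene and were not used for Tapbp. The study compared 2 fibroblast lines, line A (MEF10) and line B (MEF16), in 2 states. Untreated cells are labelled as expressing PKM2, and cells given tamoxifen as expressing PKM1; both are isoforms of the glycolytic enzyme pyruvate kinase. Each of the 4 groups held 2 arrays, 8 in all. The alleles of the lines, the dose and duration of tamoxifen, and the sex and age of the embryos are not given in the sources used here, and no group received tamoxifen without the change of isoform, so the effects of the drug and of the isoform cannot be told apart. No label tells if both arrays of a group came from separate cultures, so p-values measure the spread between these arrays, which may be technical, and their small number limits the precision.

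Proteins in the cytosol are cut into peptides by the proteasome, and a share of these peptides is displayed on the cell surface by MHC class I molecules for inspection by cytotoxic T cells. Psmb8, Psmb9 and Psmb10 encode catalytic subunits that replace the constitutive subunits Psmb5, Psmb6 and Psmb7 in the immunoproteasome, which favours peptides suited to class I molecules. Tap1 and Tap2 together form the transporter that carries peptides into the endoplasmic reticulum. Tapbp encodes tapasin, which bridges that transporter to waiting class I molecules. B2m encodes beta-2 microglobulin, the light chain of the class I molecules that display peptides. In fibroblasts these genes are known as targets of interferons.

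Of the 7 genes, 5 lie on chromosome 17 in the RefSeq annotation of GRCm38.p6, and Psmb9, Tap1, Psmb8 and Tap2 stand side by side within 34.3 kb. Tapbp is on the same chromosome, B2m on chromosome 2 and Psmb10 on chromosome 8. Psmb9 and Tap1 are read in opposite directions from starts 226 bases apart, so both promoters occupy nearly the same DNA. RefSeq promoter windows, 250 bases before to 50 bases after the start, were at hand for 6 of the genes, all but Tap2. They were searched on both strands for the core letters of the interferon-stimulated response element, GAAA and GAAA parted by any 2 bases, and of the gamma-activated site, TTC and GAA parted by any 3 bases. The 3 sequences below give the 250 bases before the start of the members that held a match, and the DNA shared by Tap1 and Psmb9. All are printed 5′ to 3′ on the plus strand of GRCm38.p6, at chr2:122147437-122147686, chr17:34197945-34198194 and chr17:34187306-34187555. Capitals mark the response element match in B2m, the gamma-activated site match in Psmb8 and, in the window of Tap1, the first 25 transcribed bases of Psmb9, which runs the other way.
B2m: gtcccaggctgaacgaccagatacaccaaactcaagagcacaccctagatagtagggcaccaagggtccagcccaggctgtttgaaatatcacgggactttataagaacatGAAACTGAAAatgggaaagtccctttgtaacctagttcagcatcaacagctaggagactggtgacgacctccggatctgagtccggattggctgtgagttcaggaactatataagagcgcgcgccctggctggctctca
Psmb8: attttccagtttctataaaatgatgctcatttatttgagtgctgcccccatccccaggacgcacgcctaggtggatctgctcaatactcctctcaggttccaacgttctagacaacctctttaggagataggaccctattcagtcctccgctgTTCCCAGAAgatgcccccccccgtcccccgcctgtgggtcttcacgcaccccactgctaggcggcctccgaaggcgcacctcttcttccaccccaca
Tap1: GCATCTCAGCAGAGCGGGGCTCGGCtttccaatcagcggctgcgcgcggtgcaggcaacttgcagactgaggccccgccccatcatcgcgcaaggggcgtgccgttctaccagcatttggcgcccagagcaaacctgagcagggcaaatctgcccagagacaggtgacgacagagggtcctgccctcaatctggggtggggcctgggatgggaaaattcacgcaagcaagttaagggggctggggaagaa

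The B2m match begins 139 bases before the start, and the Psmb8 match 97 bases before it. The response element letters were present in the window of 1 of the 6 genes and in 3.44% of all 32851 promoter windows. Those of the gamma-activated site were also present in 1 of the 6 and in 8.3% of all windows. A match describes letters in the window and is not evidence of a site in use. Only these exact letters were searched, so the lack of a match is not evidence that a site is absent. The windows of Tap1 and Psmb9 overlap over 275 bases and held neither motif.

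Values are log2 expression values from the robust multi-array average (RMA), and differences are log2 fold changes, with minus without tamoxifen, with limma standard errors. On average over the genes of each list, fibroblast markers lay between 10.3 and 10.7 on the 8 arrays, epithelial and mammary markers between 6.62 and 6.78, endothelial markers between 6.70 and 6.82 and lymphocyte markers between 5.79 and 5.99. The array medians lay between 7.17 and 7.24. Some label fields name mammary tumors as the source. Of the epithelial and mammary markers, Epcam lay between 5.89 and 6.09. Krt8 lay between 7.37 and 7.76, above the median of every array. The source of the cells was not tested. Both arrays of a group correlated at 0.996 and 0.997 in line A and at 0.991 and 0.989 in line B, without and with tamoxifen, across genes, which are not independent replicates. In bulk RNA, fewer cells of a type and less RNA per cell cannot be told apart.

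No member passed the test for a change with tamoxifen over both lines. In limma 0 of the 7 reached an adjusted p of 0.05, where 1.32% of all genes tested did, and 2 of the 7, Psmb8 and Tap1, had an unadjusted p under that value, where 9.85% of all genes did. Their log2 fold changes ran from -0.08 for Psmb9 to 0.23 for Tap1, with 4 above 0 and 3 below it and a median of 0.07, beside a median of -0.01 over all genes. The 95% intervals of the 7 members lay between -0.23 and 0.40 (log2), that is between 0.852-fold and 1.32-fold. These intervals are per gene and not adjusted for the number of genes. When each array was left out in turn the estimate lay between 0.16 and 0.26 for Tap1, 0.15 and 0.25 for Psmb8, 0.11 and 0.17 for Psmb10 and 0.01 and 0.11 for B2m. It lay between -0.11 and -0.02 for Psmb9, -0.10 and -0.03 for Tap2 and -0.09 and -0.00056 for Tapbp.

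**Figure D1:**
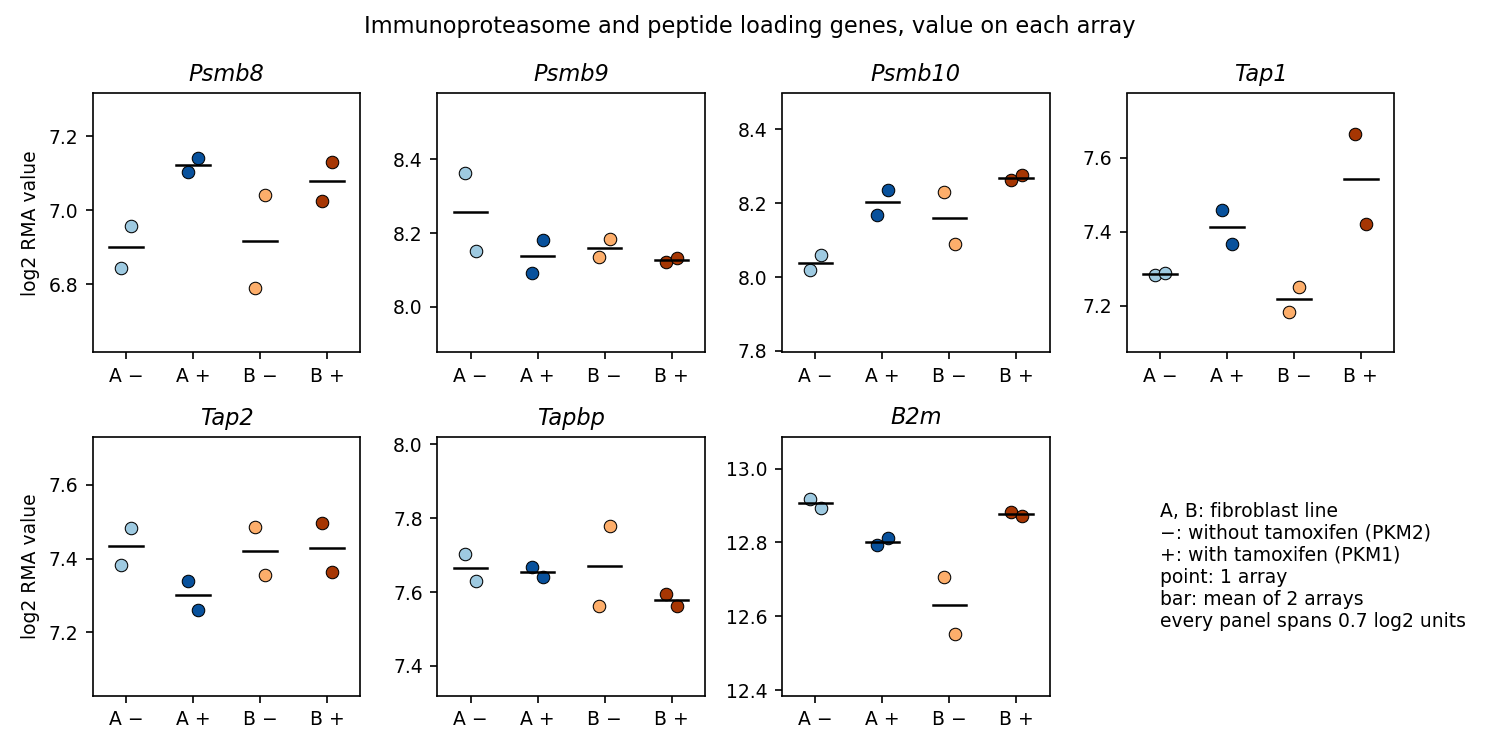
Log2 RMA value of each of the 7 genes on each of the 8 arrays; points are arrays, bars are the means of the 2 arrays of a group, and all panels have the same height in log2 units. Tap1 was higher on all 4 arrays with tamoxifen (7.37 to 7.66) than on the 4 without (7.18 to 7.29), while B2m lay lower with tamoxifen in line A and higher in line B.

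Psmb8 replaces Psmb5 and carries the chymotrypsin-like activity of the immunoproteasome. Its values were 6.84 and 6.96 in line A without tamoxifen and 7.10 and 7.14 with it, and 6.79 and 7.04 in line B without and 7.02 and 7.13 with it. All line A arrays with tamoxifen were higher than those without, and in line B they overlapped. The log2 fold change was 0.19 (SE 0.07, n = 8 arrays, adjusted p = 0.38), 0.22 (SE 0.11) in line A and 0.16 (SE 0.11) in line B. Psmb8 lay below the median of the array on all 8 arrays. No detection calls were used, so whether the probe set was above background is not shown, and dim probe sets understate a change.

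Psmb10 replaces Psmb7 and contributes trypsin-like activity. It measured 8.02 and 8.06 in line A without tamoxifen and 8.17 and 8.23 with it. In line B the values were 8.23 and 8.09 without and 8.26 and 8.28 with it. Within each line both arrays with tamoxifen were the higher ones, but across lines the groups overlapped, because line B without tamoxifen reached 8.23. The log2 fold change was 0.14 (SE 0.06, adjusted p = 0.53).

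Psmb9 replaces Psmb6. Its values were 8.36 and 8.15 in line A without tamoxifen, 8.09 and 8.18 with it, 8.13 and 8.18 in line B without and 8.12 and 8.13 with it. One array, the first of line A without tamoxifen, stood highest, and the other 7 lay between 8.09 and 8.18. The log2 fold change was -0.08 (SE 0.07, adjusted p = 0.82), opposite in sign to those of Psmb8 and Psmb10.

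The constitutive counterparts did not pass either. Psmb5 gave 0.00 (SE 0.14, 95% interval -0.31 to 0.32), Psmb6 -0.08 (SE 0.20, -0.52 to 0.36) and Psmb7 0.03 (SE 0.08, -0.16 to 0.21), with adjusted p-values of 1.00, 0.94 and 0.95. The arrays of line B were far apart for Psmb6, which was at 11.2 and 10.2 on the 2 arrays of line B with tamoxifen and at 10.6 and 11.2 without. This order of the line B arrays was not particular to Psmb6. Psmb5 was at 10.9 and 10.3 with and 10.4 and 10.9 without, and the fibroblast markers Col1a1 and Pdgfrb had the same order. Other genes did not, such as Psma1, at 11.47 and 11.48 with and 11.60 and 11.42 without. The cause of this spread was not tested. From the lowest to the highest array the span was 0.35 for Psmb8 and 0.62 for Psmb5, 0.27 for Psmb9 and 1.02 for Psmb6, and 0.26 for Psmb10 and 0.35 for Psmb7.

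Tap1, a subunit of the peptide transporter, had the largest value of the 7 changes. It was at 7.28 and 7.29 in line A without tamoxifen and 7.46 and 7.37 with it, and at 7.18 and 7.25 in line B without and 7.66 and 7.42 with it. All 4 arrays with tamoxifen were above all 4 without. Tap1 was the 1 member of 7 with such a separation; over all genes 2.56% were higher with tamoxifen without overlap, and 2.74% lower, as 0 members were. The log2 fold change was 0.23 (SE 0.08, 1.17-fold, 95% interval 0.05 to 0.40, adjusted p = 0.31), and it did not pass. Over all genes, 7.79% had a change at least as large in size.

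Tap2, its partner in the transporter, had an estimate on the other side of 0. Its values were 7.38 and 7.48 in line A without tamoxifen, 7.34 and 7.26 with it, 7.48 and 7.36 in line B without and 7.50 and 7.36 with it. Both line A arrays with tamoxifen were below those without, and the line B arrays were nearly the same in both conditions. The log2 fold change was -0.06 (SE 0.07, adjusted p = 0.86).

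Tap1 can also be set beside Psmb9, with which it shares the promoter DNA printed above. The difference of the log2 values, Tap1 minus Psmb9, was -1.08 and -0.86 in line A without tamoxifen and -0.63 and -0.82 with it. In line B it was -0.95 and -0.93 without and -0.46 and -0.71 with it. All 4 arrays with tamoxifen had the higher difference. Tap1 alone already separated these arrays, and Psmb9 overlapped, so the difference largely restates the values of Tap1. This pair was chosen after its values were seen, so no test is given, and only the shift between conditions can be read, not the level of one gene against the other.

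Tapbp, the tapasin gene, was at 7.70 and 7.63 in line A without tamoxifen and 7.67 and 7.64 with it. In line B it was at 7.56 and 7.78 without and 7.60 and 7.56 with it. The arrays overlapped in both lines, and the log2 fold change was -0.05 (SE 0.07, adjusted p = 0.88).

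B2m, the class I light chain, lay in opposite directions in the 2 lines. In line A it was at 12.92 and 12.89 without tamoxifen and at 12.79 and 12.81 with it, both lower. In line B it was at 12.71 and 12.55 without and at 12.88 and 12.87 with it, both higher. Over both lines the log2 fold change was 0.07 (SE 0.08, adjusted p = 0.86), and it was 0.01 without the second array of line B without tamoxifen.

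The log2 fold change of B2m was -0.10 (SE 0.09) in line A and 0.25 (SE 0.09) in line B, and the difference between the lines was 0.35 (SE 0.13, 95% interval 0.05 to 0.65). That difference did not pass in limma (adjusted p = 1.00), and 2.83% of all genes had an unadjusted p under 0.05 for it, as B2m did. Without overlap in either line, 2.09% of all genes were lower with tamoxifen in line A and higher in line B. Much of the contrast lay in the untreated arrays: without tamoxifen B2m was 0.28 lower in line B (SE 0.09, adjusted p = 0.65), while with tamoxifen the group means were 12.80 and 12.88. Leaving out each array in turn gave differences between 0.27 and 0.43.

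**Figure D2:**
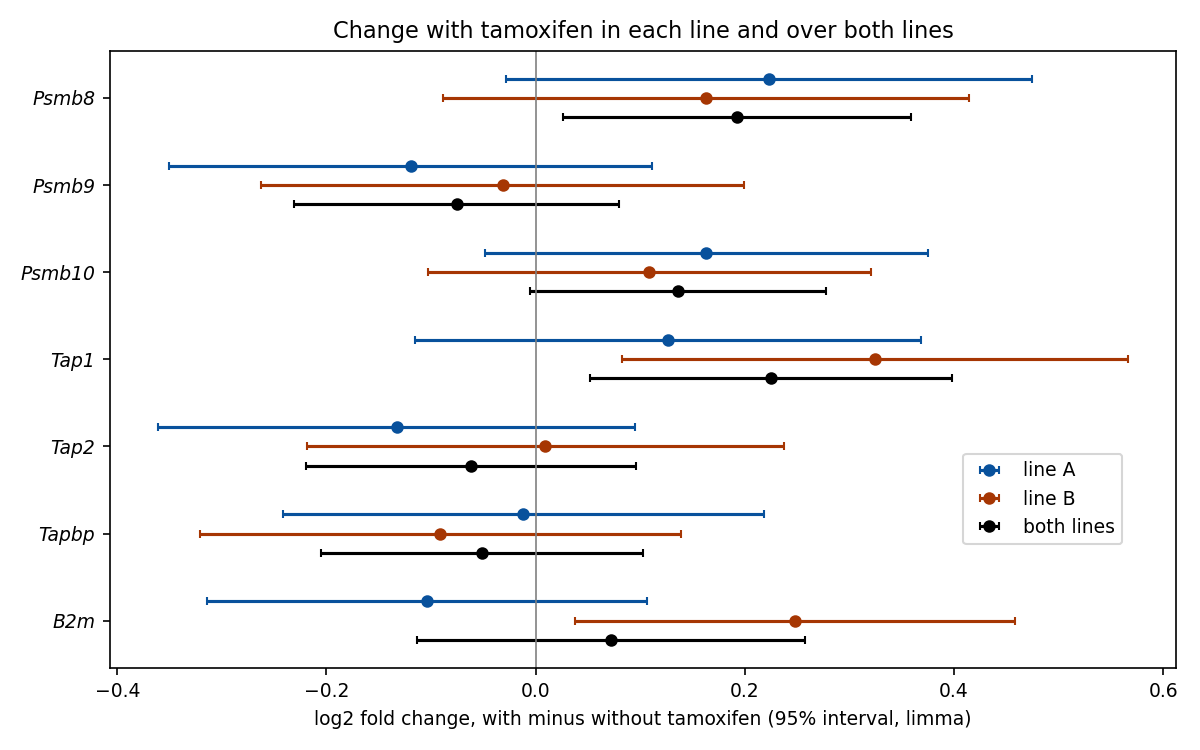
Log2 fold change of each gene, with minus without tamoxifen, in line A, in line B and over both lines; points are limma estimates and bars 95% intervals without adjustment for the number of genes. The estimates over both lines lay between -0.08 and 0.23, and B2m had estimates of opposite sign in the 2 lines.

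In line A alone 0 of the 7 passed in limma (0.502% of all genes did), and 0 had an unadjusted p under 0.05 (8.1%). The changes ran from -0.13 for Tap2 to 0.22 for Psmb8, with a median of -0.01. Arrays did not overlap for Psmb8, Psmb10 and Tap1, higher with tamoxifen, or for Tap2 and B2m, lower; over all genes 21.3% and 26.2% were separated in these directions, so 2 arrays a group separate many genes.

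In line B alone 0 of the 7 passed (0.0201% of all genes did), and 2 had an unadjusted p under 0.05 (4.82%), Tap1 at 0.32 (SE 0.11, 95% interval 0.08 to 0.57) and B2m at 0.25. Without the first array with tamoxifen Tap1 gave 0.20 in line B, and leaving out each array in turn gave 0.20 to 0.45 for Tap1 and 0.17 to 0.32 for B2m. The changes ran from -0.09 for Tapbp to 0.32 for Tap1, with a median of 0.11. Arrays did not overlap for Psmb10, Tap1 and B2m, higher with tamoxifen, or for Psmb9, lower, where 12% and 12.9% of all genes were separated. The mean level of 10 macrophage and dendritic cell markers, cells that are rich in these transcripts, was 6.82 and 6.80 in line B without tamoxifen and 6.99 and 6.98 with it, against 6.37 to 6.47 in line A. Of these markers 0 of 10 passed over both lines. Lyz2, which had the widest span of the 10 over all arrays (2.74), lay between 9.08 and 9.71 in line B and between 6.97 and 7.97 in line A. Itgax overlapped, between 6.02 and 6.48 in line B and between 6.11 and 6.28 in line A. The pan-leukocyte marker Ptprc was at 6.71 and 6.54 in line B without tamoxifen and at 6.69 and 7.33 with it. Csf1r went the other way in line B, at 6.82 and 6.75 without tamoxifen and at 6.58 and 6.75 with it. Adgre1, Itgam, Itgax, Csf1r, Cd14, Flt3 and Mrc1 lay below the array median on every array. The part of macrophages and dendritic cells in the values of Tap1 and B2m in line B was not tested.

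For the difference between the lines in the change with tamoxifen 0 of the 7 passed (0% of all genes did). Besides B2m, the differences ran from -0.08 for Tapbp to 0.20 for Tap1 (SE 0.15, 95% interval -0.14 to 0.54). Without tamoxifen, 0 of the 7 differed between the lines at an adjusted p of 0.05 (0.326% of all genes did), and B2m alone had an unadjusted p under 0.05 (5.2%). The other 6 members differed by -0.10 (Psmb9) to 0.12 (Psmb10).

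The rest of the antigen processing pathway was read from gene lists, given as counts and medians. Of the 11 other subunits of the proteasome core 0 passed, with a median of 0.09, of the 17 measured subunits of the regulatory cap 0, with a median of 0.07, and of the 10 activators and assembly factors 0, with a median of 0.05. Psme1 and Psme2, which encode the interferon-inducible activator that opens the core, gave 0.09 (SE 0.08) and 0.12 (SE 0.10), with ranges of 0.03 to 0.13 and 0.01 to 0.18 when each array was left out in turn. In line A and line B apart, Psme1 gave 0.05 and 0.12 (SE 0.12 each). Psme2 gave 0.32 and -0.08 (SE 0.12 each). The largest values of the core and cap were 0.16 for Psma6 (SE 0.08) and 0.16 for Psmd13 (SE 0.09).

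Of the class I heavy chains 10 were measured and 0 passed, with a median of -0.05. Another 9 on the list, H2-K1 and H2-D1 among them, have no probe set with a single symbol and were not analysed here, so the main partners of B2m are missing from this count. H2-Q4 gave -0.14 (SE 0.12) and Cd1d1, whose product presents lipids, -0.20 (SE 0.10). Leaving out each array in turn gave -0.27 to -0.01 for H2-Q4 and -0.30 to -0.13 for Cd1d1. The value of Cd1d1 was 0.02 (SE 0.11) in line A and -0.42 (SE 0.11, adjusted p = 0.59 in limma) in line B. Of 11 chaperones and peptidases of class I loading 0 passed, with a median of -0.07. Erap1, which trims peptides in the endoplasmic reticulum, had the largest value, 0.35 (SE 0.13, adjusted p = 0.36), and the loading chaperone Calr gave -0.18 (SE 0.10), with ranges of 0.26 to 0.47 and -0.27 to -0.09 when each array was left out in turn.

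Of 10 genes of MHC class II presentation 0 passed, with a median of -0.03. The 2 largest values belonged to endosomal enzymes, the protease gene Ctss (0.27, SE 0.10, 0.17 to 0.33 with each array left out in turn) and the thiol reductase gene Ifi30 (0.22, SE 0.08), and Cd74, the class II invariant chain, gave 0.04 (SE 0.06).

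Of 13 regulators of class I transcription 0 passed, with a median of -0.03. Nlrc5, the class I transactivator, gave -0.05 (SE 0.08), Irf1 0.02 (SE 0.10) and Ciita, the class II transactivator, -0.17 (SE 0.08). Stat2 and Irf9, which take part in the response to type I interferons, were above these at 0.44 (SE 0.09, adjusted p = 0.058) and 0.36 (SE 0.09, adjusted p = 0.094). Both were higher on all 4 arrays with tamoxifen than on any without, as 2.56% of all genes were. Leaving out each array in turn gave 0.36 to 0.52 for Stat2 and 0.30 to 0.43 for Irf9.

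**Figure D3:**
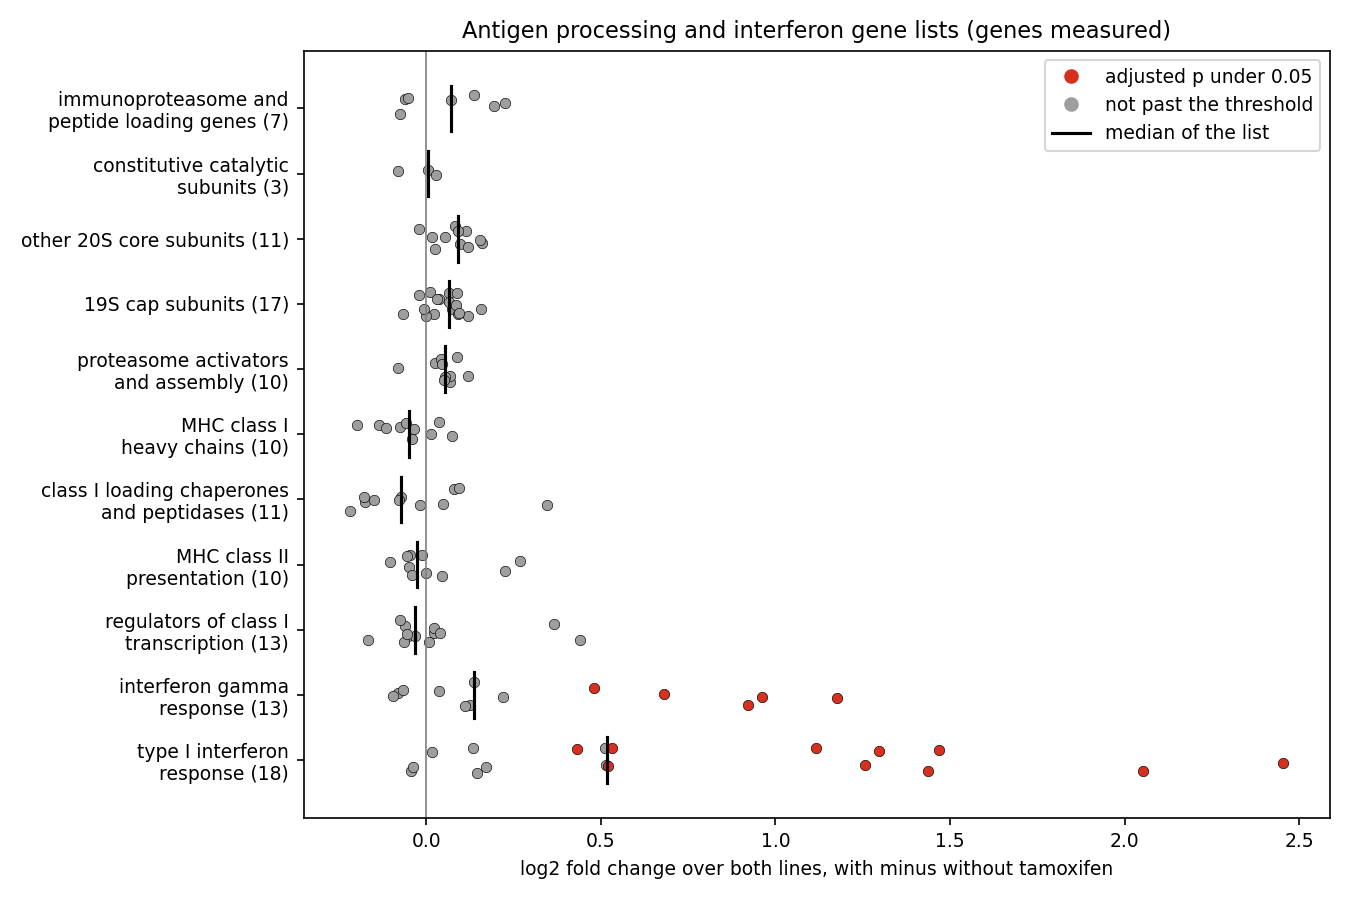
Log2 fold change over both lines, with minus without tamoxifen, of each measured gene, in the 7 members and 10 related lists; red points passed an adjusted p of 0.05 in limma, grey points did not, and black bars are medians. The red points lie in the 2 interferon response lists.

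The interferon response lists held genes that rose. Of 18 measured type I interferon response genes 10 rose, 0 fell and 8 did not pass over both lines, with a median of 0.52. In line A alone 7 of the 18 passed, where 0.502% of all genes did, and in line B 2, where 0.0201% did. The list largely repeats genes known from earlier results of these data and is not independent evidence. Ifit1, an antiviral RNA-binding protein, rose by 2.45 (SE 0.14, adjusted p = 0.00011) and Usp18, which dampens the response to interferon, by 1.26 (SE 0.09). The other 8 that rose over both lines, Ifit3, Rtp4, Xaf1, Oasl2, Ifih1, Ddx58, Bst2 and Rsad2, rose by 0.43 (Rsad2) to 2.05 (Ifit3). Rsad2 is the least certain of them. Its call (adjusted p = 0.045) was lost without 7 of the 8 arrays, each left out alone, with the line as a random block (adjusted p = 0.069), with no term for the line (0.056) and with every probe set tested on its own (0.052). Of 13 measured interferon gamma response genes 5 rose, 0 fell and 8 did not pass, with a median of 0.14. Over all genes 1.32% passed. Another 5 on the list have no probe set with a single symbol. This list was also chosen with earlier results of these data known and is not independent evidence. In line A alone 1 of the 13 passed, and in line B 0. The 8 that did not pass ran from -0.10 (Socs1) to 0.22 (Gbp4). The 5 that rose were Cxcl10 (1.18, SE 0.18), Iigp1 (0.96, SE 0.17), Irgm1 (0.92, SE 0.09), Gbp3 (0.68, SE 0.08) and Gbp7 (0.48, SE 0.08). They are a chemokine and 4 GTPases of cell-autonomous defence. That count was 2 without either array of line A without tamoxifen, and 3 without the second array of line A with tamoxifen. The calls lost with single arrays left out were those of Cxcl10, Iigp1 and Gbp7. With each array left out in turn, Cxcl10 gave 0.97 to 1.35, Iigp1 0.77 to 1.08 and Gbp7 0.42 to 0.53.

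The upper ends of the members' 95% intervals over both lines, at most 0.40 for Tap1, lay under the lower ends of those of Ifit1 (2.14), Usp18 (1.06), Irgm1 (0.72) and Gbp3 (0.51). Other genes that rose had lower ends of 0.24 (Rsad2), 0.31 (Gbp7), 0.36 (Bst2) and 0.37 (Ddx58). The interval of Tap1 overlapped those of all 4 genes, that of Psmb8 (upper end 0.36, under that of Bst2 before rounding) those of Rsad2 and Gbp7, and those of Psmb10 (0.28) and B2m (0.26) that of Rsad2. Psmb9 (0.08), Tap2 (0.10) and Tapbp (0.10) overlapped none of them. The genes compared here were taken because they passed, so their lower ends lie above 0 by that choice. Non-overlap with members that did not pass is partly set by it and is not evidence. Genes of the same lists that did not pass were not compared. They ran from -0.04 (Mx1) to 0.52 (Mx2) in the type I list and from -0.10 (Socs1) to 0.22 (Gbp4) in the interferon gamma list. Whether the members as a group differ from the genes that rose was not tested, since the members were chosen with these results known.

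**Figure D4:**
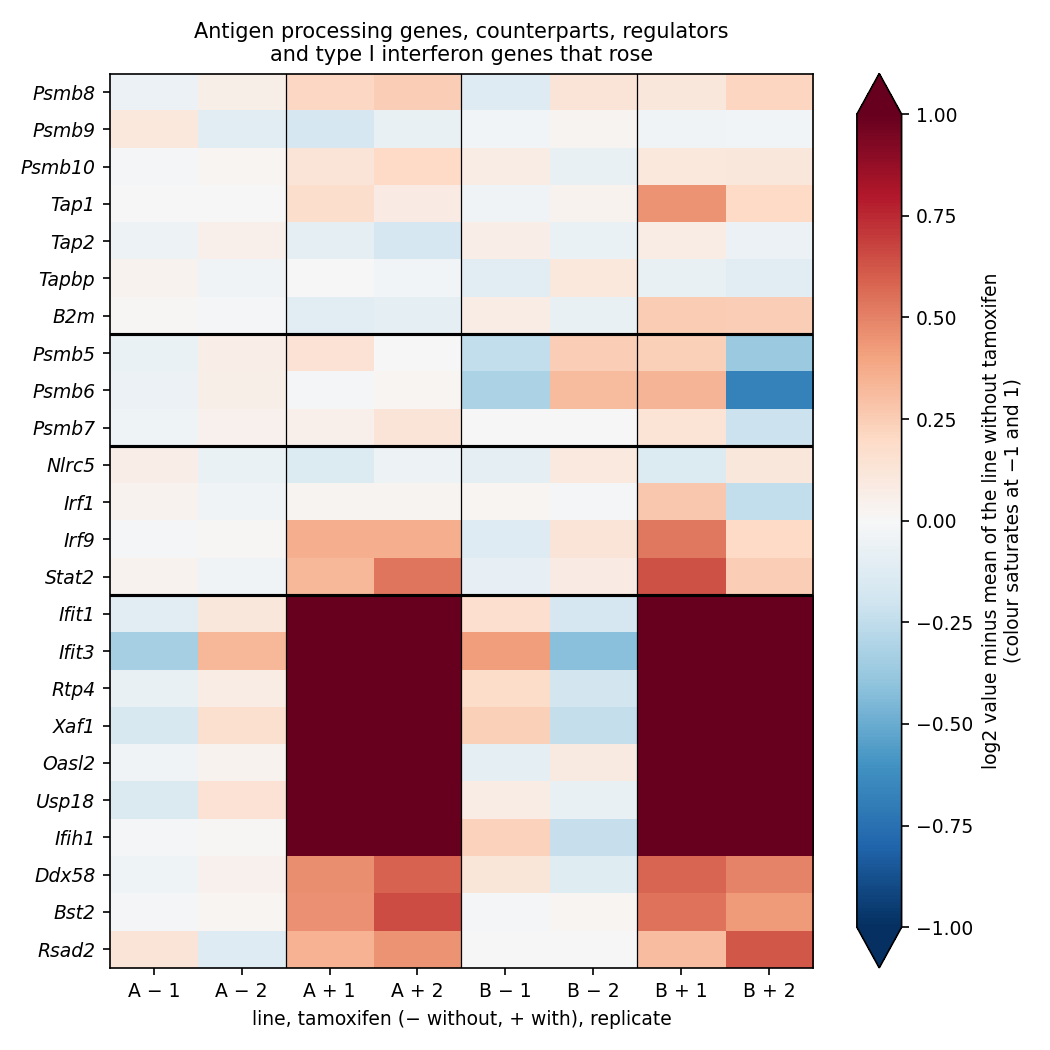
Log2 values of the 7 members, their 3 constitutive counterparts, 4 regulators and the 10 type I interferon response genes that rose, each minus the mean of the same line without tamoxifen; columns are the 8 arrays and colours saturate at -1 and 1. Ifit1 lies at 2.14 to 2.94 on the arrays with tamoxifen, and the largest value among the members is 0.45, for Tap1 on the first array of line B with tamoxifen.

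The mean of the 7 members, each centred on its own mean, varied little: it lay between -0.01 and 0.01 in line A, at -0.07 and -0.04 in line B without tamoxifen and at 0.07 and 0.03 with it. The 6 other genes most like this mean, by Pearson correlation over the 8 arrays among genes with an SD of at least 0.2, were Oasl2 (0.86), Cxcl10 (0.85), Gbp3 (0.85), Bace2 (0.84), Rnf213 (0.83) and Stat2 (0.82). Of these, Oasl2 (1.30, SE 0.13), Cxcl10, Gbp3 and Bace2 (0.52, SE 0.07) rose with tamoxifen. The 6 were picked as the highest correlations among many genes, so their values are not evidence of shared regulation with the members. The share of all genes that correlate as highly with the mean was not computed. The members did not follow this mean alike. The correlation of each with the mean of the other 6 was 0.79 for Tap1, 0.27 for B2m, 0.14 for Psmb8 and 0.08 for Psmb10, and it was -0.32 for Tap2, -0.42 for Psmb9 and -0.49 for Tapbp. All these correlations describe the arrays, which share lines and treatments, and the mean they refer to spans a far smaller range than the genes named.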

How the data were processed

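RNA of 8 samples was hybridised to Affymetrix arrays. Per the labels, the authors made RMA values with Affymetrix Expression Console (version not stated). The deposited table holds log2 values of 35556 probe sets, between 2.61 and 14.12. RMA corrects background, quantile-normalizes the arrays and compresses differences of dim probe sets. GEO's platform annotation gave 1 symbol for 21789 probe sets; 1621 with several symbols and 12146 with none were not named. A gene with several probe sets was represented by the brightest, which left 19938 genes.

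Tests used limma 3.58.1 in R 4.3.3 with p-values adjusted over all genes (Benjamini-Hochberg) and called under 0.05. For tamoxifen over both lines the model held terms for line and treatment; the rest were contrasts between means of the 4 groups. Fits were tested on simulated data. The labels number no replicates. Members, lists and the rule for named genes were chosen with earlier results of these data known. The rule took all members and the 6 genes most like the members' mean. From each list it took the genes that passed or up to 4 with the smallest p, of which a part is printed. Nlrc5, Irf1, Epcam, Krt8, Lyz2, Itgax, Ptprc, Socs1 and Gbp4 were named after their values were seen. So were Mx1, Mx2, Col1a1, Pdgfrb, Psma1, Adgre1, Itgam, Csf1r, Cd14, Flt3 and Mrc1. Sequences are from RefSeq, GRCm38.p6. Alternatives were other scalings, a filter on dim genes, other variance settings, array weights, other treatments of probe sets and of the line, and leaving out each sample.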

Additional observations from a re-analysis of the deposited data

How the results depend on the processing

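The count of members past the threshold was 0 under all 17 alternatives for tamoxifen over both lines, all 16 in each line alone, and all 15 for the difference between lines and for the lines without tamoxifen; the smallest adjusted p of a member was 0.15. No paired analysis was possible because the labels number no replicates. Values near 0 changed sign; the cause was not tested. Shifting the arrays to a common median gave 0.0059 for Tapbp in line A and -0.0023 for Tap2 in line B, quantile normalization again gave -0.012 for Psmb5, and array weights gave -0.0046 for B2m, the last 2 over both lines. With array weights 1 gene of class II presentation (Ifi30) and 2 regulators (Stat2 and Irf9) passed. Leaving out each array in turn gave, over both lines, -0.10 to 0.14 for Psmb5, -0.27 to 0.14 for Psmb6 and -0.030 to 0.11 for Psmb7. It gave -0.048 to 0.024 for Tapbp in line A, and in line B -0.20 to 0.017 for Tapbp and -0.058 to 0.076 for Tap2. For the difference between lines it gave -0.018 to 0.19 (Psmb9), -0.13 to 0.017 (Psmb10), -0.19 to 0.066 (Psmb8) and -0.19 to 0.029 (Tapbp). For line B against line A without tamoxifen it gave -0.11 to 0.14 (Psmb8), -0.20 to 0.0087 (Psmb9), -0.077 to 0.051 (Tap2) and -0.10 to 0.11 (Tapbp). The count of interferon gamma response genes past the threshold lay between 2 and 5, that of regulators between 0 and 2, and that of type I interferon response genes between 8 and 11. With 2 arrays a group and no detection calls, changes smaller than the intervals given cannot be resolved.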
